A study of Sus scrofa with 34 samples.

Results

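The enzymes described here remove superoxide and peroxides: the superoxide dismutases SOD1 and SOD2, catalase (CAT), the glutathione peroxidases GPX1, GPX2, GPX3 and GPX4, and the peroxiredoxins PRDX1, PRDX5 and PRDX6. They were named by symbol, and 9 of the 10 were found by their pig Ensembl symbol among the 25880 genes of the liver and ileum count tables, of which 14857 carried a symbol. GPX1 was not analysed here. Weaned crossbred piglets (Landrace × Large White sows and Pietrain boars) received a basal diet (Control), the same diet with an essential oil-based phytogenic feed additive (PFA), a diet with heat-oxidized rapeseed oil (OO), or the oxidized oil together with the additive (OO + PFA). Liver RNA was sequenced from 6 piglets per diet and ileum RNA from 5 Control and 5 PFA piglets, and the 10 ileum piglets also gave a liver library. The labels give the age as d28, and the study's methods place sampling at day 28 of feeding. All piglets of a diet shared 1 pen, so effects of pen and of diet cannot be told apart, nor can those of oil oxidation and added fat, since the oil came on top of the basal diet.

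Superoxide, a by-product of respiration and of several oxidases, is turned into hydrogen peroxide by SOD1 in the cytosol and by SOD2 in mitochondria. Hydrogen peroxide is then broken down by catalase, which sits mainly in peroxisomes, by selenium-containing glutathione peroxidases, which draw on glutathione, and by peroxiredoxins, most of which draw on thioredoxin. GPX4 and PRDX6 also reduce peroxides of membrane lipids. The liver, rich in peroxisomes, is known for high catalase, and the gut epithelium for GPX2.

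Gene positions are from the RefSeq annotation of the pig genome Sscrofa11.1, the build to which the authors aligned their reads. SOD1 (ENSSSCG00000021355) lies on chromosome 13, 195326573 to 195335273, plus strand. PRDX6 (ENSSSCG00000022742) lies on chromosome 9, 115857629 to 115868898, plus strand. The bases just upstream of the annotated starts of SOD1 (chr13:195326323-195326572) and PRDX6 (chr9:115857379-115857628), each 250 long, are shown because these were the only enzymes of the set that passed the test in a liver diet comparison. Capitals mark GC boxes, the letters GGGCGG on either strand, and the TATA box TATAAA.

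SOD1: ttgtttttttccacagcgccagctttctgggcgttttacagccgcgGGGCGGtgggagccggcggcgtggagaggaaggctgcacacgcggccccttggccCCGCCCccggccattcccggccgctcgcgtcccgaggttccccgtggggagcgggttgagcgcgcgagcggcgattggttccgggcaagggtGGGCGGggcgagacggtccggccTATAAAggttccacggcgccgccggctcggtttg

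PRDX6: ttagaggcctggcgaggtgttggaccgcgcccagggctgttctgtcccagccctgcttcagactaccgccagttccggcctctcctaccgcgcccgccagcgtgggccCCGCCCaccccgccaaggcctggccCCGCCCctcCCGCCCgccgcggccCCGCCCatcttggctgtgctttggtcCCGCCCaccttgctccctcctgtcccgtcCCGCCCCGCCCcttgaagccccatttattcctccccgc

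The SOD1 stretch held 3 GC boxes and 1 TATA box, whose first base lay 34 bases before the start. The PRDX6 stretch held 7 GC boxes and no TATA box, and 2 of its GC boxes shared a base. In windows of 300 bases around the start (250 before and 50 after), a GC box was found in 50.6% of 19506 promoters and in 7 of the 10 enzyme promoters. The TATA letters were found in 10.9% of promoters, and in 1 of the 10. The core of the antioxidant response element, TGACNNNGC on either strand, was in 12.3% of promoters and in those of GPX2 and GPX4, where the matched letters were GCTAAGTCA and GCGCAGTCA. The core of the PPAR response element (DR1), to which PPAR receptors bind, was in 0.031% of promoters and the E-box CACGTG in 7.93%, and neither was in an enzyme promoter. A match of letters is a description and not a binding site. The GC box and TATA letters were added to the search after the gene values were seen.

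The values are read pairs counted per gene. Between 19839171 and 42446834 read pairs fell on genes in the 23 liver libraries compared, and between 18772230 and 24338165 in the 10 ileum libraries. The library of OO + PFA piglet 77 was left out of the comparisons. The study left it out as well and suspected degraded RNA. In that library 36.6 read pairs had several alignments for every 100 on genes, against 3.02 to 14.7 in the other liver libraries. The 10 most abundant genes took 48.3% of its read pairs, against 23.8% to 34.8% elsewhere in liver. Levels are given as CPM, counts scaled to library size on genes, with library sizes adjusted by the TMM method, separately for liver and ileum. In every liver group the 8 hepatocyte markers found were above 1 CPM in at least 1 library, with albumin (ALB) between 59974 and 147967 CPM in the 23 libraries. ALB, TTR, SERPINC1, FGB, CYP2E1 and TAT stayed under 1 CPM in every ileum library, and FABP6, FABP2, SI and SLC10A2, markers of ileal enterocytes, under 1 CPM in every liver library compared. The hepatocyte markers APOA1 and APOB did not stay under 1 CPM in ileum, where the hepatocyte sum ran from 3100 to 7639 CPM. Likewise the enterocyte markers APOA4, VIL1 and ANPEP did not in liver, where the enterocyte sum ran from 257 to 916 CPM.

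In livers from the oxidized oil diet, SOD1 was 1.85-fold higher and PRDX6 1.44-fold lower than in Control piglets, and no other enzyme of the set passed the test. The comparison asks what the oxidized oil did to unsupplemented piglets. Of the 9 enzymes, 8 were abundant enough in liver to be tested, and GPX2 was not, with between 0 and 11 read pairs per library. Of the 8, 1 rose and 1 fell at an adjusted p of at most 0.05, against 2.71% of all 13831 liver genes tested, 190 higher and 185 lower (quasi-likelihood test of edgeR, adjusted by the Benjamini-Hochberg method). The median log2 fold change of the 8 was -0.08, and that of all genes tested was 0.06.

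SOD1, the copper and zinc superoxide dismutase of the cytosol, lay between 311 and 390.4 CPM in the 6 Control livers (median 365.4) and between 523 and 888 CPM in the 6 OO livers (median 641). Every OO piglet was thus above every Control piglet. How many of all genes tested separated these groups completely was not counted, here or for PRDX6. The group means were 356 ± 29.7 and 660.5 ± 124 CPM (SD, n = 6 each). The log2 fold change was 0.89 (SE 0.13, 95% interval 0.63 to 1.15, adjusted p = 1.76e-04 by edgeR's quasi-likelihood test). The spread within OO was wider than within Control, and piglet 130, at 888 CPM, was the highest of all liver libraries. Without it the difference was 0.79, the smallest value when any single library was left out.

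PRDX6, a peroxiredoxin that reduces phospholipid peroxides with the help of glutathione, lay between 143 and 197 CPM in Control livers (median 187) and between 110.2 and 136.8 CPM in OO livers (median 126.2). The groups did not overlap, and all 6 OO piglets lay below the lowest Control piglet. The means were 181 ± 20.5 CPM in Control and 125 ± 10.2 CPM in OO (SD, n = 6 each). The log2 fold change was -0.53 (SE 0.14, 95% interval -0.83 to -0.23), with an adjusted p of 0.0472 by edgeR's quasi-likelihood test. This call stood close to its threshold. It was kept without Control piglet 80, PFA piglet 95, 134 or 138, OO piglet 74 or 97, or OO + PFA library PLOOP_137_2. It was lost without any of the other 16 libraries, with adjusted p-values up to 0.0979, while the log2 fold change stayed between -0.59 and -0.50 throughout. With all 24 liver libraries the adjusted p was 0.119.

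**Figure D1:**
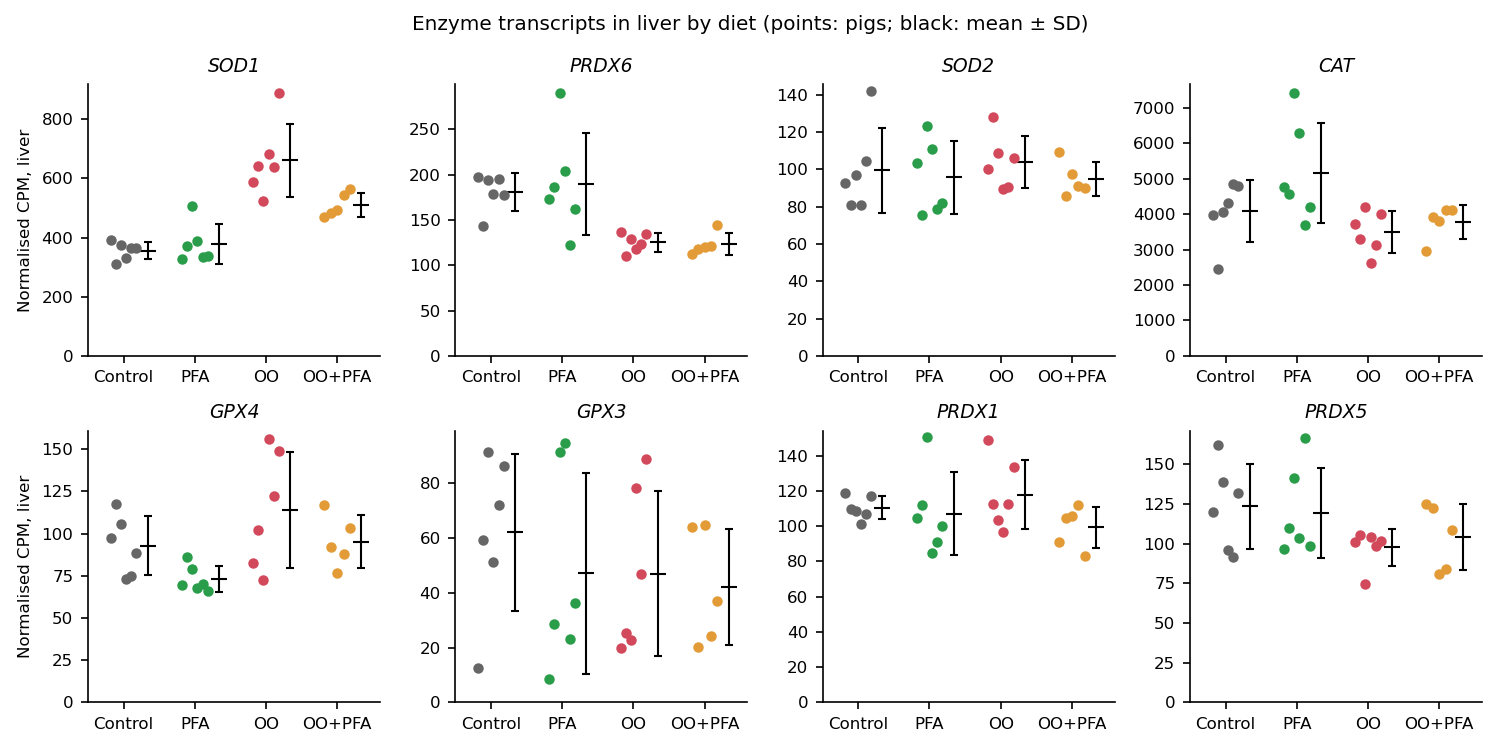
CPM of the 8 enzymes tested in liver (vertical axes, each from 0) for piglets fed Control, PFA, OO and OO + PFA. Points are piglets (6, 6, 6 and 5), and black marks the mean and SD. SOD1 is higher in all OO and OO + PFA piglets than in any Control piglet, PRDX6 is lower in all OO piglets than in any Control piglet, and the other 6 panels show overlapping groups. How many of all genes separate in this way was not counted.

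The other enzymes in OO livers overlapped with Control. SOD2, the manganese superoxide dismutase of mitochondria, ran from 89.6 to 128 CPM in OO and from 80.7 to 142 CPM in Control, a log2 difference of 0.06 (95% interval -0.24 to 0.36). CAT ran from 2615 to 4213 CPM in OO and from 2460 to 4841 CPM in Control, a log2 difference of -0.22 (95% interval -0.59 to 0.15). For catalase, whose substrate is the product of the dismutases, 5 of 6 OO piglets lay below the Control mean and none below the lowest Control piglet.

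GPX4, which reduces lipid peroxides within membranes, ran from 72.4 to 156 CPM in OO and from 73.0 to 117 CPM in Control. Its log2 difference was 0.30 (95% interval -0.05 to 0.64, adjusted p = 0.312 by edgeR's quasi-likelihood test), and 3 of 6 OO piglets exceeded the highest Control piglet while 1 fell below the lowest. GPX3, the secreted glutathione peroxidase of plasma, was the most variable: it ran from 12.7 to 91.2 CPM among Control piglets alone. Its log2 difference of -0.41 had a 95% interval of -1.47 to 0.66, so even a fall of 2-fold was not detectable at this spread.

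PRDX1, a thioredoxin-dependent peroxiredoxin of the cytosol, ran from 96.7 to 149 CPM in OO and from 101 to 119 CPM in Control, a log2 difference of 0.09 (95% interval -0.17 to 0.36). PRDX5, found in mitochondria, peroxisomes and cytosol, ran from 74.4 to 106 CPM in OO and from 91.8 to 162 CPM in Control. All 6 OO piglets were below the Control mean for PRDX5, with a log2 difference of -0.34 (SE 0.16), an unadjusted p of 0.0472 and an adjusted p of 0.229 by edgeR's quasi-likelihood test.

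With oxidized oil and PFA together, SOD1 was again higher (1.44-fold) and PRDX6 lower (1.47-fold) than in Control, the same 2 of 8 enzymes. Among all genes 5.08% were called in this comparison, 565 of the 702 in the higher direction. This comparison and the preceding one share the Control livers, so they are given side by side and not as repeats of one another. The median log2 fold change was -0.13 over the 8 enzymes and -0.01 over all genes tested.

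SOD1 stood at 471, 484, 492, 543 and 565 CPM in the 5 OO + PFA livers, all above the highest Control liver. The share of all genes tested that separated these groups completely was not counted. The log2 difference from Control was 0.52 (SE 0.13, 95% interval 0.25 to 0.79, adjusted p = 0.0280 by edgeR's quasi-likelihood test). Leaving out Control piglet 100 or OO + PFA library PigLiv_00P_126 or PLOOP_137_2 took its adjusted p to 0.0571, 0.0608 and 0.0590. PRDX6 stood at 113, 118, 120, 122 and 145 CPM. Of these 5 livers, 4 were below the lowest Control liver, and library PLOOP_137_2 overlapped with Control. The log2 difference was -0.55 (SE 0.15, 95% interval -0.87 to -0.24, adjusted p = 0.0378 by edgeR's quasi-likelihood test). The call was lost without Control piglet 71, 85, 100 or 110, or OO + PFA piglet 79 or 98, PigLiv_00P_105 or PigLiv_00P_126, with adjusted p-values up to 0.0924.

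The additive was compared within challenged piglets (OO + PFA against OO), which asks how livers with and without PFA differed when both received oxidized oil. None of the 8 enzymes passed the test, and 0% of the 13831 genes did with edgeR. At an unadjusted p under 0.05 there were 1176 genes and 1 enzyme, SOD1, and DESeq2 called 35 genes and 0 enzymes. SOD1 averaged 511 ± 40.7 CPM (SD, n = 5) in OO + PFA and 660.5 ± 124 CPM (SD, n = 6) in OO. All 5 OO + PFA livers were below the OO mean and 3 of them below the lowest OO liver. The log2 difference was -0.37 (SE 0.13, 95% interval -0.64 to -0.10), with an unadjusted p of 0.0101 and an adjusted p of 0.466 by edgeR's quasi-likelihood test. SOD1 was therefore lower in the sample means without passing the test over all genes.

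PRDX6 differed by -0.02 on the log2 scale between OO + PFA and OO (95% interval -0.33 to 0.29), with means of 124 ± 12.4 and 125 ± 10.2 CPM. PRDX1 differed by -0.25 (-0.53 to 0.03), GPX4 by -0.26 (-0.62 to 0.11) and SOD2 by -0.13 (-0.45 to 0.18), with 95% intervals in parentheses. CAT differed by 0.11 (-0.28 to 0.50), PRDX5 by 0.09 (-0.26 to 0.44) and GPX3 by -0.16 (-1.28 to 0.97). The intervals of PRDX1 and GPX4 reached further below 0 than above it, and that of GPX3 was the widest.

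**Figure D2:**
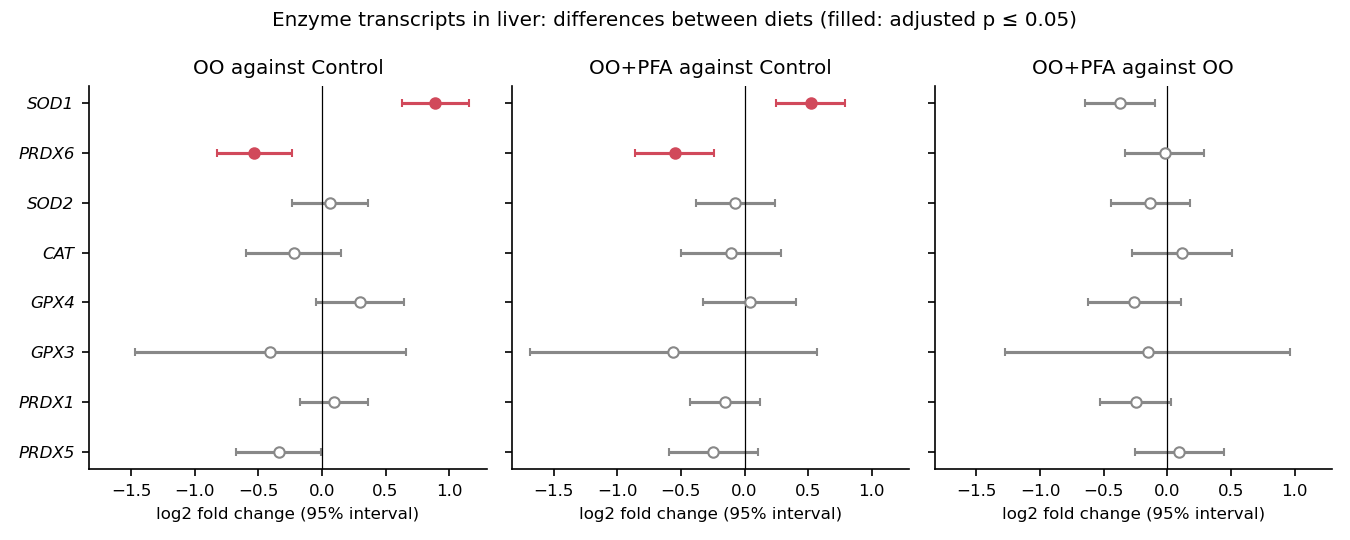
Log2 fold changes (horizontal axis) of the 8 enzymes in liver for OO against Control, OO + PFA against Control and OO + PFA against OO, with 95% intervals from edgeR's quasi-likelihood fit. Filled points have an adjusted p of at most 0.05: SOD1 (0.89 and 0.52) and PRDX6 (-0.53 and -0.55) against Control, and none for OO + PFA against OO.

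In piglets without oxidized oil, PFA was compared with Control. No enzyme passed the test (0% of 13831 genes with edgeR, 1522 genes and 0 enzymes at an unadjusted p under 0.05, 41 genes and 0 enzymes with DESeq2). SOD1 ran from 326 to 507 CPM with PFA (median 355) and differed by 0.08 on the log2 scale (95% interval -0.18 to 0.34). PRDX6 ran from 123 to 291 CPM with PFA and differed by 0.07 (95% interval -0.23 to 0.37). CAT reached 7406 CPM in PFA piglet 95, and its log2 difference was 0.34 (95% interval -0.03 to 0.71, adjusted p = 0.491 by edgeR's quasi-likelihood test). GPX4 ran from 66.0 to 85.9 CPM with PFA, a log2 difference of -0.35 (95% interval -0.69 to 0.00185, adjusted p = 0.452 by edgeR's quasi-likelihood test).

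The oil was also compared between the diets that both held PFA (OO + PFA against PFA), where 1.58% of all genes were called. Here PRDX6 fell, with a log2 difference of -0.62 (SE 0.15, adjusted p = 0.0379 by edgeR's quasi-likelihood test). SOD1 differed by 0.44 (SE 0.13), at an adjusted p of 0.0868 by the same test and 0.0490 with DESeq2. CAT differed by -0.45 (SE 0.19, adjusted p = 0.168, edgeR) and GPX4 by 0.38 (SE 0.18, adjusted p = 0.191, edgeR). The PRDX6 call was lost without OO + PFA piglet 79 or 98, PigLiv_00P_105 or PigLiv_00P_126, or without PFA piglet 67, 75, 95 or 107, with adjusted p-values up to 0.0974. Without PFA piglet 95, the highest of its group for both genes, SOD1 passed instead, with an adjusted p of 0.0301 in edgeR's quasi-likelihood test.

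The difference between these oil contrasts, the oil by PFA interaction, is the test of whether PFA changed the response. It called 0% of all genes with edgeR (1881 at an unadjusted p under 0.05, and 155 with DESeq2) and none of the 8 enzymes with either tool. SOD1 had an interaction of -0.45 on the log2 scale (SE 0.18, 95% interval -0.83 to -0.08), the only enzyme at an unadjusted p under 0.05 (0.0202), with an adjusted p of 0.291 by edgeR's quasi-likelihood test. For PRDX6 the interaction was -0.09 (95% interval -0.52 to 0.34). A smaller rise of SOD1 with PFA was thus not shown by this test.

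Across the 4 diets, 3.66% of all genes and 2 of the 8 enzymes were called, SOD1 (adjusted p = 2.01e-04) and PRDX6 (adjusted p = 0.0137, both by edgeR's quasi-likelihood test). GPX4 came next, with an adjusted p of 0.0960, and it passed without OO piglet 74 (0.0484) or OO piglet 97 (0.0269). Those piglets had the lowest GPX4 of the OO livers, at 82.3 and 72.4 CPM. With both oil diets set against both diets without oil, a comparison chosen after the data were seen, 11.8% of all genes were called. In it SOD1 was 0.66 higher (SE 0.09) and PRDX6 0.58 lower on the log2 scale (-0.58, SE 0.10), with adjusted p-values of 5.04e-05 and 0.00143 (edgeR). GPX4 differed by 0.34 (adjusted p = 0.0689), CAT by -0.33 (0.0984) and PRDX5 by -0.27 (0.138), and none of these passed.

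Liver library titles come in a pair of forms, PigLiv and PL, whose meaning the labels do not give, and both occur in every diet. Within the PigLiv libraries SOD1 was 0.83 higher in OO than in Control (adjusted p = 0.00480) and PRDX6 differed by -0.55 (adjusted p = 0.0353). Within the PL libraries, with 2 Control and 3 OO piglets, the differences were 0.95 (adjusted p = 0.191) and -0.48 (adjusted p = 0.537, all by edgeR). Directions were the same in both forms, and neither call was made among the PL libraries alone.

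Markers of other cells that the liver pieces could hold were measured alongside. The summed level of the 7 macrophage markers ran from 422 to 1000 CPM in Control (median 572) and from 464 to 1158 CPM in PFA (median 891). It ran from 708 to 1553 CPM in OO (median 941) and from 760 to 1688 CPM in OO + PFA (median 1104). The medians were thus higher in both oil diets than in Control while the ranges overlapped, none of the 7 markers was called, and their part in the SOD1 and PRDX6 results was not tested. Red blood cells carry much SOD1 and PRDX6 protein. The sum of their 5 markers ran from 124 to 596 CPM in Control and from 214 to 464 CPM in OO, and with this sum as a further term, chosen after the data were seen, SOD1 was 0.90 higher in OO (adjusted p = 2.21e-04, edgeR). PRDX6 was at -0.52 under the same term, with an adjusted p of 0.0499 by edgeR. The fibroblast and stellate cell markers had median sums of 1135 CPM in Control, 1643.5 in PFA, 1261 in OO and 1334 in OO + PFA, with overlapping ranges. Median sums lay between 165 and 182 CPM over the diets for endothelium and between 110 and 136 CPM for smooth muscle. Neutrophil, bile duct and T cell markers were at lower levels. The 4 neutrophil markers found all had positive log2 differences in OO (median 0.85) and in OO + PFA (median 0.47) against Control, with sums from 2.45 to 7.04 CPM in Control, 4.07 to 16.7 CPM in OO and 2.30 to 20.2 CPM in OO + PFA. The 3 bile duct markers found had medians of 0.47 and 0.50 in these comparisons. The 4 T cell markers found were all positive in OO (median 0.31) and all negative in OO + PFA (median -0.59). None of these markers was called, and their part in the enzyme results was not tested. Of the 8 hepatocyte markers, CYP2E1 alone was called in OO. They summed to between 84296 and 148002 CPM in Control, between 91435 and 121040 CPM in OO and between 95777 and 125158 CPM in OO + PFA. In OO + PFA against Control, TAT and CYP2E1 were called, 1 higher and 1 lower. ALB alone averaged 85780.5 CPM in Control, the larger part of the sum. In bulk tissue, fewer cells of a type and less RNA per cell cannot be told apart.

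Each library's slope of log2 expression on the GC content of the exons was measured as well. Its median was -0.11 in Control, -0.12 in PFA, 0.07 in OO and 0.17 in OO + PFA, in log2 units per 10 percentage points of GC. With this slope as a further term, also chosen after the data were seen, PRDX6 in OO + PFA against Control was at -0.41 with an adjusted p of 0.131 (edgeR), and SOD1 at 0.51 with an adjusted p of 0.0481. GC content was known for only 79.7% of the genes tested, below the 80% required here, so this check is void as a test.

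The enzymes varied together in part. Over the 23 liver libraries, log2 CPM of SOD1 and PRDX6 had a Pearson r of -0.46, but of 0.65 once each diet's mean was subtracted. Within a diet, piglets with more SOD1 thus tended to have more PRDX6, while oxidized oil was accompanied by more of the one and less of the other. CAT and PRDX6 had an r of 0.77, and 0.80 within diets. PFA piglet 95 was the highest of its group for SOD1, PRDX6 and CAT. Its library had the lowest GC slope (-0.47) and the lowest TMM factor (0.80) of the livers compared. The part of such library differences in the correlations was not tested. These correlations are descriptions, and all points share the scaling of their libraries.

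The genes with patterns most like each of the 3 enzymes with the smallest p across the diets were read from the same 23 libraries. For SOD1 they were DHRS4 (r = 0.93), MPC2 (0.93), SLC25A20 (0.92), HADHA (0.90) and CHST13 (0.89), with values between 0.54 and 0.69 within diets. For PRDX6 they were AKR1D1 (0.88), C8A (0.88), ITIH2 (0.86), ALDH6A1 (0.85) and PDCL3 (0.84), with 0.72 to 0.81 within diets. For GPX4 they were COX6A1 (0.92), ATOX1 (0.91), SNAPC2 (0.91) and TAF10 (0.91), and here the values barely changed within diets (0.89 to 0.92).

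Genes around these enzymes were read from fixed lists. The other superoxide dismutase, glutathione peroxidase and peroxiredoxin genes numbered 7 tested in liver: all 7 had positive log2 differences in OO against Control (median 0.22) and none passed, where 57.7% of all genes tested were positive, with a median of 0.06. They include CCS, the chaperone that loads copper into SOD1, at 0.45 (95% interval -0.05 to 0.95, adjusted p = 0.291, edgeR). CCS was not called, and it is named for its known role, after its value was seen. Against Control, OO + PFA again gave positive differences for all 7 genes, with a median of 0.10 and none called. Among all genes 48.8% were positive there, with a median of -0.01.

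Among 9 genes of the thioredoxin and sulfiredoxin system, which recharges peroxiredoxins, none was called in OO or in OO + PFA against Control (medians 0.15 and 0.16). Of 11 genes of glutathione synthesis and NADPH supply, CTH alone fell in OO against Control, where 2.71% of all genes were called. CTH, the enzyme that makes cysteine from cystathionine, averaged 146 ± 17.1 CPM in Control and 95.8 ± 28.0 CPM in OO (SD, n = 6 each), a log2 difference of -0.60 (adjusted p = 0.0453, edgeR). The call was lost without any of 15 of the 23 libraries, with adjusted p-values up to 0.121. In OO + PFA its difference was -0.40 and did not pass.

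Of 11 genes listed as regulators, of which NQO1 and HMOX1 are targets of NFE2L2 and not regulators of these enzymes, SP1 alone was called. SP1, a factor that binds GC boxes, averaged 40.7 ± 9.66 CPM in Control, 27.3 ± 3.43 with PFA, 22.3 ± 7.56 with OO (SD, n = 6 each) and 23.96 ± 5.17 with OO + PFA (SD, n = 5). It fell by 0.87 on the log2 scale in OO (adjusted p = 0.0150) and by 0.76 in OO + PFA (adjusted p = 0.0322, both edgeR), and the mean of PFA livers without oil stood between those of Control and both oil diets. With 1 library left out, the SP1 call was kept in all 23 fits in OO and in 16 of 23 in OO + PFA. Among all genes, 2.71% were called in OO and 5.08% in OO + PFA against Control. NFE2L2, which drives antioxidant response elements, differed by -0.02 in OO (95% interval -0.29 to 0.26), and its inhibitor KEAP1 by 0.08 (-0.11 to 0.28). PPARA, the fatty acid receptor of the liver, differed by -0.64 in OO (95% interval -1.23 to -0.05, adjusted p = 0.196, edgeR) and by 0.09 in OO + PFA. NFE2L2, KEAP1 and PPARA are named for their known roles, after their values were seen.

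The sources of superoxide and hydrogen peroxide were read as well, where the genes called were named after their values were seen. None of the 10 oxidases that form hydrogen peroxide was called in OO, and in OO + PFA against Control 1 was, ACOX3, an oxidase of peroxisomal fatty acid breakdown, at 0.70 (adjusted p = 0.0357). None of the 8 NADPH oxidase genes tested was called in OO (median 0.57). Against Control, with OO + PFA, CYBA, a membrane subunit of these oxidases that phagocytes express, rose by 1.76 (adjusted p = 0.0424), from 3.35 ± 1.36 to 11.4 ± 5.19 CPM. DUOX2, which releases hydrogen peroxide, rose by 1.02 (adjusted p = 0.0471) at a level near 1 CPM. The macrophage sum given above moved in the same direction as CYBA, and its part was not tested. Of 7 genes of selenoprotein synthesis and selenium transport, SCLY, which frees selenium from selenocysteine, rose by 1.08 in OO + PFA (adjusted p = 0.0378). Of 8 genes for import of enzymes into peroxisomes, PEX26 fell by 0.42 in OO + PFA (adjusted p = 0.0444, all edgeR). Among all genes tested, 5.08% were called in OO + PFA against Control. These calls depended on single libraries. With 1 library left out, in 23 fits, the call was kept in 15 for ACOX3, 14 for CYBA, 14 for SCLY, 11 for DUOX2 and 10 for PEX26. Adjusted p-values in those fits reached 0.132 (edgeR). No gene of these lists was called in OO + PFA against OO.

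**Figure D3:**
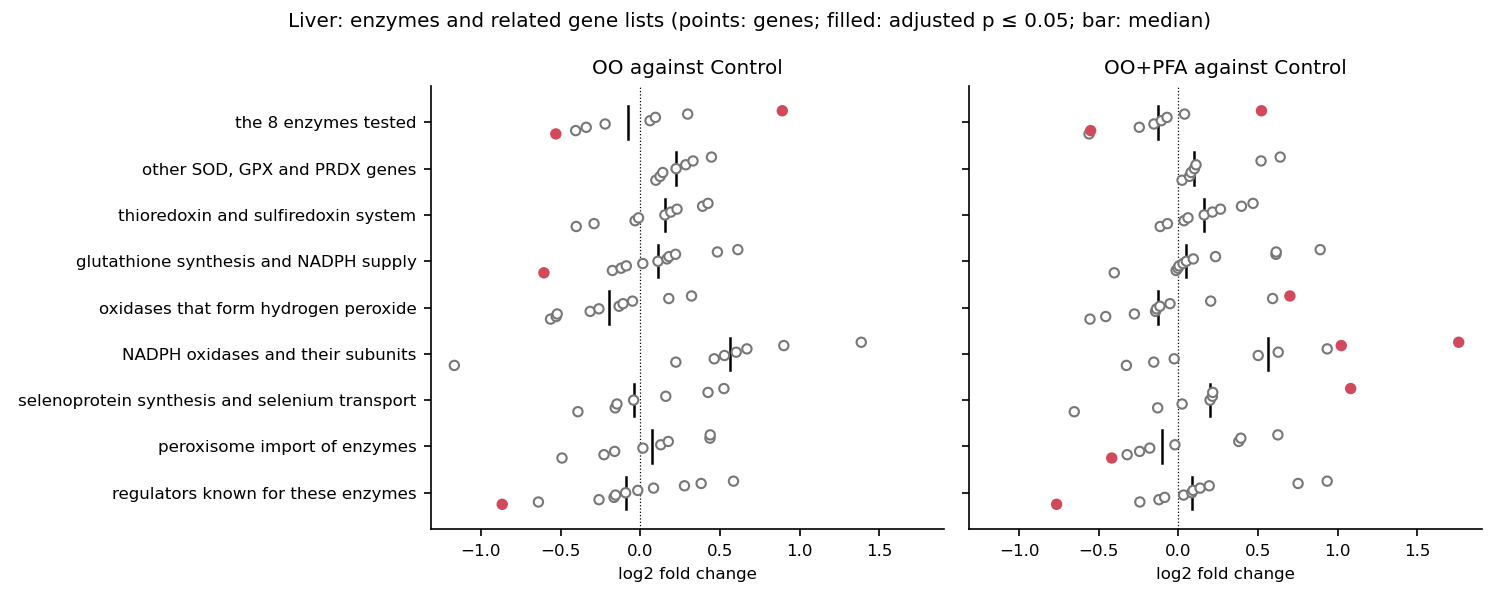
Log2 fold changes in liver (horizontal axis) of the 8 enzymes and of the genes tested in 8 related lists, for OO and for OO + PFA against Control. Each point is a gene, filled where the adjusted p is at most 0.05, and bars mark list medians. Filled points are few: SOD1, PRDX6, CTH and SP1 on the left, and SOD1, PRDX6, ACOX3, CYBA, DUOX2, SCLY, PEX26 and SP1 on the right.

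In the ileum, where only Control and PFA were sequenced, all 9 enzymes were abundant enough to be tested and none was called. With edgeR 0% of 14300 genes passed (401 genes and 1 enzyme, PRDX6, at an unadjusted p under 0.05), and DESeq2 called 5 genes and 0 enzymes. PRDX6 stood at 78.1, 82.3, 83.9, 85.02 and 92.0 CPM in Control ilea and at 87.1, 101, 103, 104.97 and 113 CPM with PFA. Of the PFA ilea, 4 of 5 were above the highest Control ileum, and the share of all genes for which this held was not counted. The log2 difference was 0.27 (SE 0.09, 95% interval 0.07 to 0.48), with an unadjusted p of 0.0131 and an adjusted p of 0.991 by edgeR's quasi-likelihood test.

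PRDX5 stood at 58.4, 73.96, 86.0, 91.0 and 98.1 CPM in Control and at 44.3, 69.9, 70.4, 70.7 and 75.3 CPM with PFA, a log2 difference of -0.30 (95% interval -0.67 to 0.07). The groups overlapped, although all PFA ilea lay below the Control mean. GPX2, the glutathione peroxidase of gut epithelium, ran from 61.3 to 122 CPM in Control and from 76.6 to 159 CPM with PFA, a log2 difference of 0.30 (95% interval -0.26 to 0.86). CAT differed by 0.28 (95% interval -0.13 to 0.68) and GPX3 by -0.41 (95% interval -1.02 to 0.20). The ileal enterocyte markers, 7 of them found, summed to between 21709 and 32023 CPM in Control and between 16347 and 25095 CPM with PFA, and their part in these values was not tested. Of the 5 B and plasma cell markers, 4 were lower with PFA (median log2 difference -3.18, none called), and the ileum of Control piglet 80 stood apart, with 126.3 CPM of MS4A1 against at most 2.30 CPM in every other ileum. Without that library the log2 differences were 0.25 for PRDX6, -0.26 for PRDX5, 0.19 for GPX2, 0.19 for CAT and -0.30 for GPX3, and none passed.

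**Figure D4:**
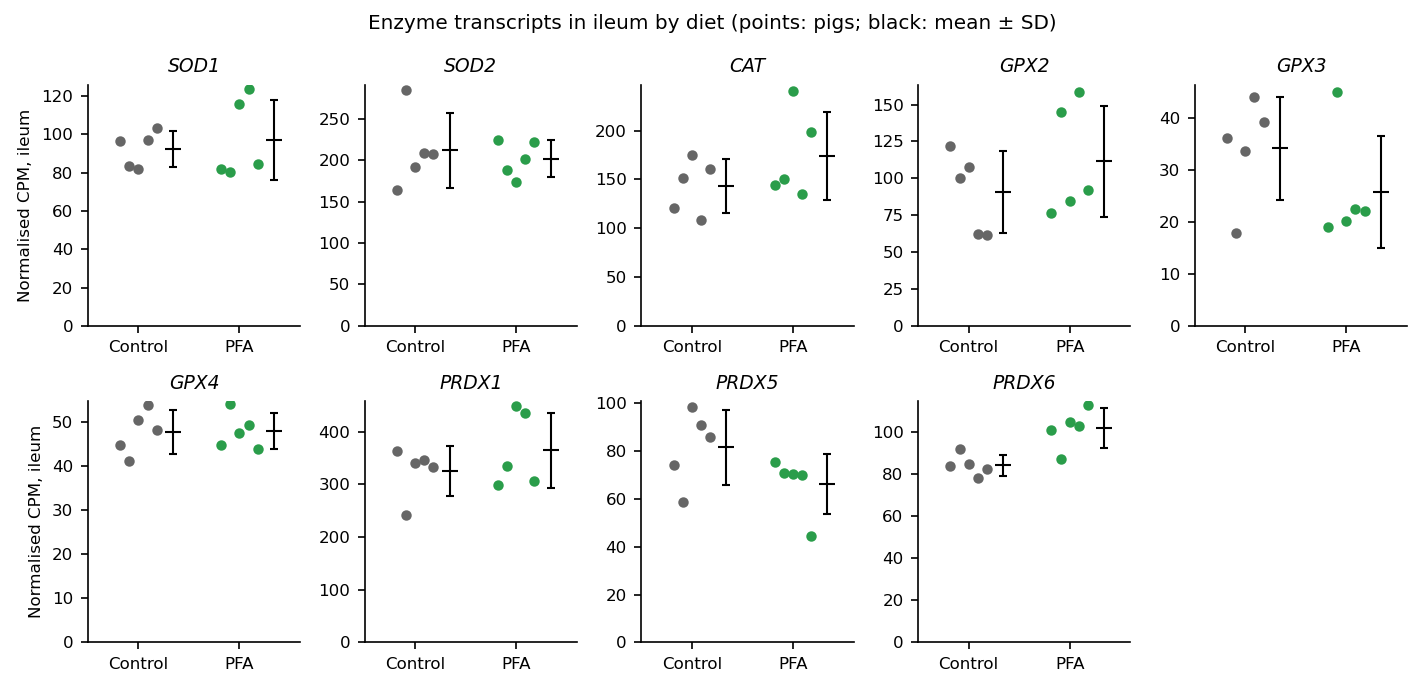
CPM of the 9 enzymes in the ileum (vertical axes, each from 0) of 5 Control and 5 PFA piglets, with the mean and SD in black. Groups overlap for every enzyme, PRDX6 least, where 4 of 5 PFA piglets are above all Control piglets.

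Between tissues of the same 10 piglets, every enzyme but SOD2 differed more on the log2 scale than it did between any diets compared. For this comparison both tissues were scaled together, so CPM values differ from those above, and tissue and library preparation cannot be told apart. Of 9 enzymes, 6 were lower in ileum, 2 higher and 1 not called, against 78.1% of 14982 genes called (edgeR). CAT averaged 6817 ± 2056 CPM in liver and 107 ± 25.9 CPM in ileum (SD, n = 10 each), 63.2-fold lower in ileum (log2 difference -5.98, SE 0.21, adjusted p = 2.03e-16). SOD1 averaged 541 ± 84.6 CPM in liver and 64.2 ± 10.5 CPM in ileum, 8.42-fold lower. PRDX6 was 4.33-fold, GPX3 4.04-fold, GPX4 3.68-fold and PRDX5 3.59-fold lower in ileum, with adjusted p-values of 7.00e-06 or less.

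GPX2 took the opposite course. It averaged 0.18 ± 0.18 CPM in liver, from 0 to 11 read pairs per library, and 68.3 ± 21.9 CPM in ileum (SD, n = 10 each), a log2 difference of 8.59 (SE 0.32, adjusted p = 9.20e-16 by edgeR's quasi-likelihood test). PRDX1 was 1.46-fold higher in ileum (log2 difference 0.55, SE 0.12, adjusted p = 2.23e-04, edgeR). SOD2 alone did not differ beyond the spread, at 142 ± 33.5 CPM in liver and 140.1 ± 22.2 CPM in ileum (SD, n = 10 each), a log2 difference of -0.02 (95% interval -0.28 to 0.24).

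Levels of different genes can be compared only per length, here as CPM per kb of exon, with exon lengths from RefSeq. In liver CAT came first at 2776 ± 837, followed by SOD1 at 853 ± 133 (SD, n = 10), and the ranges of both were apart from their neighbours. PRDX5 (227), PRDX6 (164), GPX4 (135), PRDX1 (89.6), SOD2 (84.99) and GPX3 (52.0) followed with ranges that overlapped from each to the next, and GPX2 was last at 0.23. In ileum PRDX1 led at 131 ± 23.3, followed by SOD1 (101), GPX2 (85.5), SOD2 (83.8), PRDX5 (63.7), CAT (43.7), PRDX6 (37.9) and GPX4 (36.4), each range overlapping with the next. GPX3 came last at 12.98 ± 4.70, apart from GPX4. Catalase thus went from first in liver to the sixth place in ileum.

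**Figure D5:**
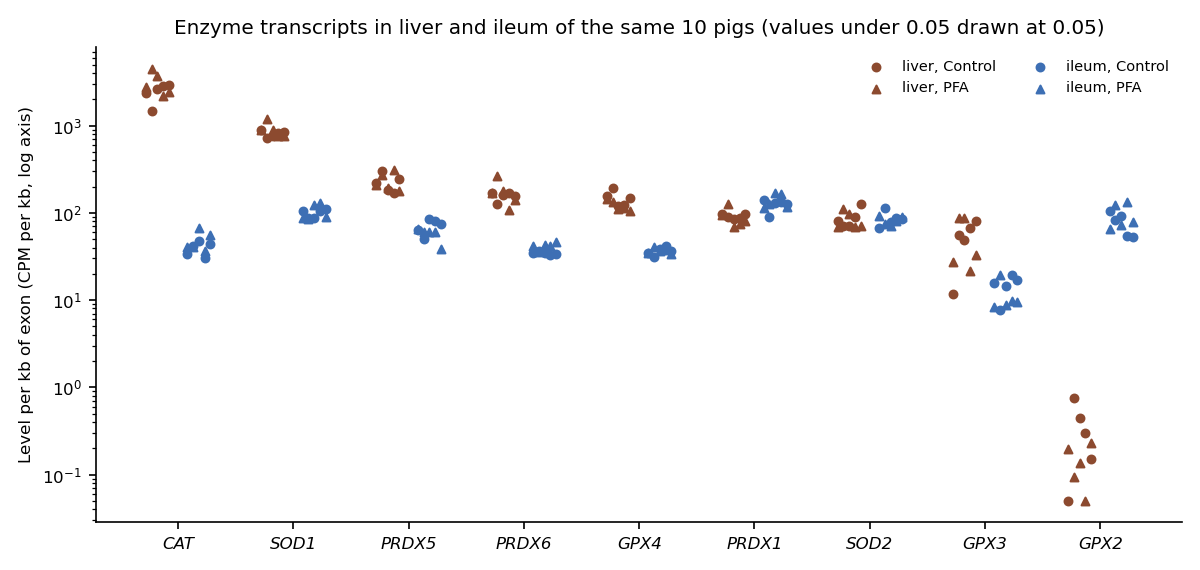
Level per kb of exon (vertical log axis, CPM per kb) of the 9 enzymes in liver and ileum of the same 5 Control and 5 PFA piglets, ordered by the mean in liver. CAT and SOD1 stand above the other enzymes in liver, GPX2 is near 0 in liver and at 85.5 in ileum on average, and the SOD2 ranges overlap between tissues.

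The effect of PFA was also compared between tissues. The tissue by PFA interaction called 0% of 14982 genes with edgeR (739 at an unadjusted p under 0.05, and 0 with DESeq2) and none of the 9 enzymes. For PRDX6 it was 0.14 on the log2 scale (95% interval -0.35 to 0.63).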

How the data were processed

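RNA was measured in 24 liver and 10 ileum libraries of piglets (poly(A)-enriched, stranded, paired-end). The authors deposited whole-number counts of read pairs per Ensembl gene, not normalized, made with STAR 2.6.1d on Sscrofa11.1 and HTSeq. The annotation release and the strand option are not given in the sources used here, so it is not known whether reads of overlapping antisense genes were told apart. Read pairs with several alignments were not assigned, which can lower genes with near-identical copies. Series tables and sample files held the same values in all 34 columns. Groups came from the labels, and p-values measure the spread between piglets of 1 pen per diet.

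Rows that name no gene were left out of library sizes (in liver, 7.54 to 23.5 read pairs on no gene per 100 on genes). Counts were fitted with edgeR 4.0.16 in R 4.3.3 (TMM, filterByExpr, quasi-likelihood test, two-sided, limma 3.58.1), and genes were called at a Benjamini-Hochberg adjusted p of at most 0.05 over all genes tested, as in the study. Fits held 23 liver libraries, 10 ileum libraries, or 20 libraries of the 10 piglets with both tissues. Log2 CPM used a prior count of 2. Tables were handled with Python 3.11.15, pandas 2.3.3 and numpy 2.4.6. The test was checked on simulated counts. Alternatives were DESeq2 1.42.0 (for the 4 diets its likelihood ratio test with a raised limit on iterations), RLE scaling, other filters, all 24 liver libraries, the title form, a fit of the diets compared alone, a fold of at least 2, a replicate block, and each library left out. Ileum and liver samples pair by animal, since the same piglet numbers occur in both. The correlation of deviations within a pair ran from -0.18 to 0.46 over the 10 piglets.

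The enzymes and gene lists were chosen with earlier results of these data known. All enzymes are named. From other lists genes called in OO against Control or OO + PFA against OO were to be named, at most 4 a list. For the 3 enzymes with the smallest p across the diets, the 5 genes with the highest correlation were to be named, of which 1 is not reported here. Symbols came from a gene name table. At 18772230 read pairs, the smallest library compared, a gene with few counts cannot be measured.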

Additional observations from a re-analysis of the deposited data

Results flagged for a closer look

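Some single livers or ilea lay far from the rest of their group. Each sample named here was the highest or lowest of its group, with a gap to the nearest sample that exceeded Dixon's 95% critical value for its group size. Of 54 pairs of an enzyme and a group, 9 were of this kind, where chance gives about 1 in 20 for independent, normally distributed values. The enzymes share libraries and CPM need not be normally distributed, so that share is only a guide.

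In Control livers, piglet 80 was lowest for CAT (2460 CPM, the next at 3977) and for PRDX6 (143 CPM, the next at 177). In the same library 23.5 read pairs fell on no gene for every 100 on genes, the most among liver libraries. Without it, SOD1 in OO against Control was at 0.85 (adjusted p = 8.14e-04) and PRDX6 at -0.59 (adjusted p = 0.0430, both by edgeR). PFA piglet 95 was highest for SOD1 in liver, at 507 CPM with the next at 387.

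In OO livers, PRDX5 was lowest in piglet 97, at 74.4 CPM with the next at 98.3. In OO + PFA livers, CAT was lowest in piglet 79 (2963 CPM, the next at 3794) and PRDX6 highest in library PLOOP_137_2 (145 CPM, the next at 122). In the ileum, PRDX1 was lowest in Control piglet 110 (242 CPM, the next at 332). With PFA, GPX3 was highest in piglet 134 (44.9 CPM, the next at 22.5) and PRDX5 lowest in piglet 95 (44.3 CPM, the next at 69.9).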

How the results depend on the processing

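SOD1 in OO against Control kept its call in 34 of 36 alternatives (lost among PL titles alone and with a fold of at least 2), and PRDX6 in 15 of 36. The 36 include the GC slope fit, which is void, and the pooled oil comparison, which is a different contrast. The loss at 2-fold was fixed in advance by main folds of 1.85 for SOD1 and 1.44 for PRDX6. Enzymes called numbered 2 in OO against Control, and 1 without a low-count filter, with all 24 liver libraries or with the title form as a term, 0 among PL titles alone or with a fold of at least 2, and 1 to 2 with a library left out. OO + PFA against Control had 2 called, 1 without a filter or with the GC slope, 0 among PL titles or at 2-fold, and 0 to 2 with a library left out. OO + PFA against PFA had 1 called, 2 with DESeq2, 0 with the title term, PL titles, both diets alone, 2-fold or the GC slope, and 0 to 1 with a library left out. Across 4 diets 2 were called, 1 with the GC slope, and 2 to 3 with a library left out. In OO + PFA against PFA, DESeq2 also called more genes in all than the 218 of edgeR, as given below. The fit with the GC slope is void as a test, as stated above.

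Directions turned for small differences. In OO against Control, SOD2 was at -0.15 in PigLiv titles, and CAT at 0.20 and GPX4 at -0.10 in PL titles. PRDX1 was at -0.00699 with the oil diets pooled, which is a different contrast. In PFA against Control, SOD1 was at -0.052 and PRDX6 at -0.056 in PigLiv titles. In OO + PFA against Control, CAT was at 0.31 and GPX4 at -0.14 in PL titles, and with the GC slope SOD2 was at 0.092, CAT at 0.12 and GPX4 at -0.23. In OO + PFA against OO, SOD2 was at 0.036 in PigLiv titles, PRDX6 at 0.23 in PL titles and 0.057 with the GC slope, and CAT at -0.10 and GPX3 at 0.00506 with all 24 libraries. The PRDX6 interaction was 0.029 with the GC slope. SOD2 between tissues was 0.00905 with DESeq2, 0.00342 with RLE and 0.069 with at least 10 counts in every library.

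With a library left out, SOD2 ran from -0.00749 to 0.21 in OO and from -0.13 to 0.089 in OO + PFA against Control, where GPX4 ran from -0.047 to 0.12. In PFA against Control, SOD1 ran from -0.013 to 0.12 and PRDX6 from -0.086 to 0.17. In OO + PFA against OO, GPX3 ran from -0.36 to 0.13 and PRDX6 from -0.085 to 0.010. The PRDX6 interaction ran from -0.19 to 0.060 and SOD2 between tissues from -0.050 to 0.024. The causes were not tested.

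Counts of all genes called moved with the tool: DESeq2 called 1089 in OO and 1366 in OO + PFA against Control, 687 in OO + PFA against PFA and 1791 across 4 diets. With the pig number as a replicate block, which pairs ileum and liver of 1 animal, 8 of 9 enzymes were called between tissues (SOD1 at -3.08, GPX2 at 8.55) and the block changed no other call. GPX2 in liver, at 0 to 11 read pairs per library, was too low to be tested between liver diets.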

Other observations

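The OO + PFA liver left out of the comparisons, from piglet 77, had 364 CPM of SOD1, 652 of CAT, 55.6 of PRDX6, 189 of GPX4, 36.5 of SOD2, 71.3 of GPX3, 110 of PRDX1, 125 of PRDX5 and 0.14 of GPX2. Its CAT, PRDX6 and SOD2 values were below, and its GPX4 value above, those of every other liver.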
